A study of Caenorhabditis elegans with 34 samples.

Results

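The transcriptional difference between predicted long-lived and short-lived Caenorhabditis elegans was compared between a pair of lifespan biomarkers, of which mir-240/786p::GFP is one and mir-243p::GFP the other. For every gene, the long-minus-short difference of the mir-243p::GFP strain was set against that of the mir-240/786p::GFP strain, with the high and the low library of a sort paired by the sort number. The comparison used 16 libraries of the 34 in the series, 8 from each strain, with 4 sorts per strain and a high and a low library per sort. Each strain carries 1 integrated reporter in which a microRNA promoter drives GFP, and both also carry spe-9(hc88), a temperature-sensitive mutation that leaves sperm unable to fertilise. Both strains were grown in synchrony on E. coli OP50 at the restrictive 25 °C and passed through a microfluidic sorter at day 5, which collected the brightest 10% (high library) and the dimmest 10% (low library) and discarded the 80% between them. Per the labels, bright mir-243p::GFP animals and dim mir-240/786p::GFP animals are the ones predicted to live long. The rest of the series, 12 libraries of lin-4p::GFP and 6 of red autofluorescence, entered the fit and is quoted below for reference. Those animals also carried spe-9(hc88) and were sorted at day 5 and 25 °C. There, bright lin-4p::GFP animals and animals with dim autofluorescence are predicted to live long, and the animals sorted by autofluorescence carry no GFP reporter. RNA was taken from pooled whole animals.

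The mir-243p::GFP reporter is active throughout the intestine and the mir-240/786p::GFP reporter in the spermatheca, the part of the somatic gonad where oocytes meet sperm. MicroRNAs are short RNAs that lower the output of partly complementary messenger RNAs, but the reporters report promoter activity and not the microRNAs themselves. In the adult hermaphrodite the intestine makes yolk proteins, digestive enzymes and immune effectors, while the germline makes most of the maternal RNA, so that shifts of either tissue are visible in RNA from whole worms. Since long life goes with bright GFP in one strain and with dim GFP in the other, and each biomarker is 1 strain, a difference between the biomarkers cannot be told apart from a difference between the strains or from an effect of brightness.

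The 16 libraries held between 18 and 26.1 M counts each (M, 1000000; median 22.1), so that 3 counts corresponded to 0.113 to 0.174 counts per M counts on the normalised scale (CPM), a floor that covers counting error only. All fold changes and log2 differences are long over short. Replicates are separate sorts, and p-values measure the spread between them. No pair of replicate libraries agreed within counting noise. In the mir-243p::GFP strain, gfp stood at 2921, 2368, 2935 and 2018 CPM in the high libraries of sorts 1 to 4 and at 1476, 1433, 1605 and 877 CPM in the low libraries. In the mir-240/786p::GFP strain it stood at 373, 316, 395 and 344 CPM in the high libraries and at 206, 166, 199 and 163 CPM in the low libraries. The reporter itself was therefore separated by nearly the same log2 difference in both strains, with a mean of 0.95 in the first and −0.96 in the second, where the sign follows the predicted lifespan. As background for the markers below, all 11 intestinal and all 7 spermathecal marker genes were detected in the 16 libraries, and summed spermathecal markers ranged from 337 to 627.6 CPM over all libraries.

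The long-against-short difference was larger in mir-240/786p::GFP sorts than in mir-243p::GFP sorts. Its size was measured for each sort as the mean log2 difference over 498 genes that were higher in long-lived animals of both other biomarkers, lin-4p::GFP and red autofluorescence, minus that over 1130 genes that were lower in both. The terms that chose these genes are those of the other biomarkers, whose libraries shared the filter and the dispersion of the fit with the 16. The score was 2.17, 1.80, 1.19 and 1.47 in mir-243p::GFP sorts 1 to 4. It was 2.69, 3.15, 3.17 and 2.51 in mir-240/786p::GFP sorts 1 to 4. Every mir-240/786p::GFP sort lay above every mir-243p::GFP sort, and the means were 1.66 ± 0.426 (SD, n = 4) and 2.88 ± 0.328, a ratio of 1.74 (exact permutation p = 0.0286, two-sided, the smallest that 4 against 4 sorts allow). The exact permutation p was 0.0571 without mir-240/786p::GFP sort 2 or without its sort 3, and 0.0286 without any other sort, while the difference of the means stayed between 1.06 and 1.39.

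**Figure D1:**
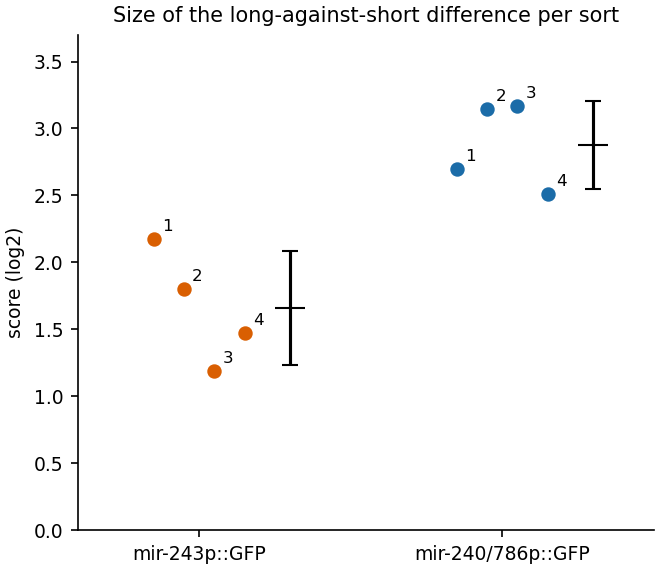
The score of each sort (log2, vertical axis) is the mean long-minus-short difference of genes higher in long-lived animals of the other biomarkers minus that of genes lower in them, with sort numbers beside the points and the mean ± SD (n = 4) in black. The 4 mir-240/786p::GFP sorts sit between 2.51 and 3.17, and the 4 mir-243p::GFP sorts between 1.19 and 2.17.

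Differences of the single genes followed the same scale. Of 14245 genes tested, 5308 were called in mir-243p::GFP (2384 higher and 2924 lower in long-lived animals, 37.3%) and 8616 in mir-240/786p::GFP (4249 higher and 4367 lower, 60.5%), at an adjusted p under 0.05 from edgeR's quasi-likelihood test with the sort as a block. The terms of both biomarkers had the same sign for 12095 genes (84.9%), and their correlation across genes was 0.84 (Pearson's r) and 0.84 (Spearman's rho), where genes are not independent replicates. Of 4770 genes called in both biomarkers, 4756 had the same direction in both and 14 had opposite directions. The slope that links the biomarkers, taken from genes weighted by their mean difference in lin-4p::GFP and autofluorescence, was 1.65, so that an average gene of the common pattern differed 1.65 times as much on the log2 scale in mir-240/786p::GFP. The slope was 1.73 over genes higher in the other biomarkers and 1.59 over genes lower in them. It was 1.86 without mir-243p::GFP sort 1 and 1.46 without its sort 3, the extremes when 1 sort was left out. Taken without the other biomarkers, it was 1.56 (major axis) or 1.46 (ratio of root mean squares).

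The difference of differences, mir-240/786p::GFP minus mir-243p::GFP, was called for 1196 genes (8.4% of those tested), 559 of them positive and 637 negative. None of these passed an adjusted p of 0.0001 in edgeR, and 131 did in DESeq2. In 1081 of the 1196 genes (90.4%) both biomarkers had the same sign and the mir-240/786p::GFP difference was the larger one. The 505 of these that were higher in long-lived animals had median log2 differences of 0.30 in mir-243p::GFP and 0.91 in mir-240/786p::GFP, and the 576 that were lower had medians of −0.80 and −1.84. For the other biomarkers, whose libraries shared the filter and the dispersion of the fit, the same 505 genes had medians of 0.45 for lin-4p::GFP and 0.85 for autofluorescence, and the 576 had medians of −1.45 and −1.74. The signs differed in 97 other genes without both biomarkers passing the threshold, and 4 genes had the same sign with the larger difference in mir-243p::GFP.

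The number of calls depended on single sorts and on the block. It fell to 773, 382 and 468 without mir-243p::GFP sorts 2, 3 and 4 and to 787, 504 and 256 without mir-240/786p::GFP sorts 1, 2 and 3, while all 1196 genes had the same sign in each of these fits. Without the sort block, the fit on all 34 libraries called 3 genes and the fit on the 16 libraries alone called 1075, with common dispersions of 0.0646 and 0.0334 beside 0.0347 in the blocked fit.

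**Figure D2:**
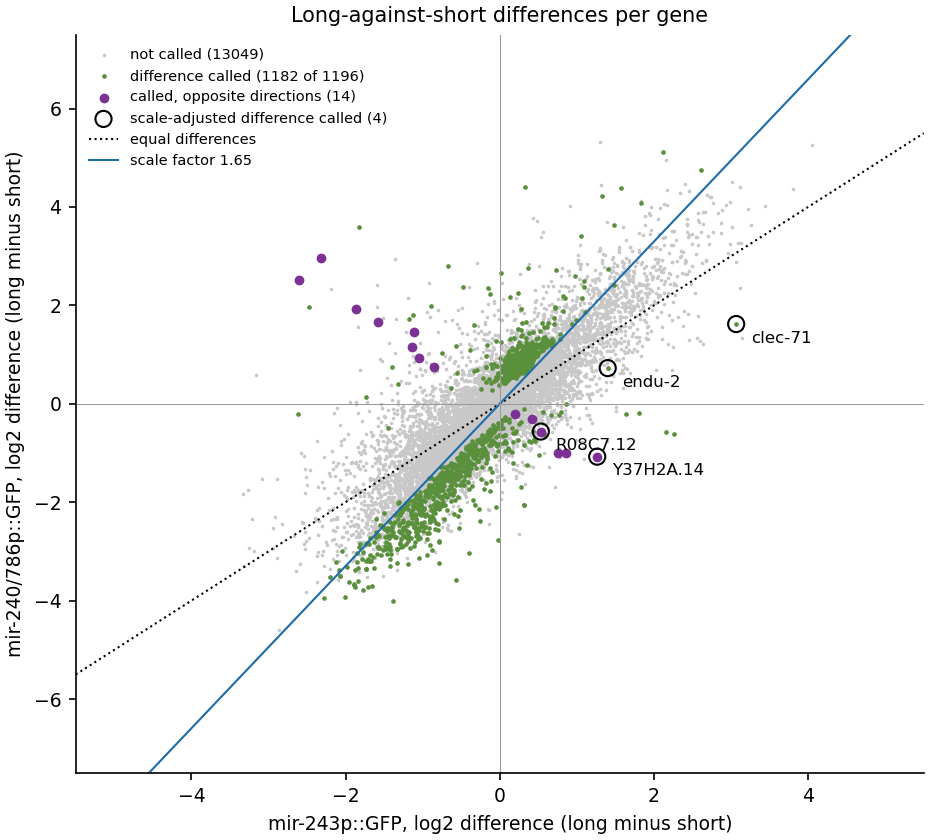
Each point is 1 of 14245 genes, with its log2 difference (long minus short) in mir-243p::GFP on the horizontal axis and in mir-240/786p::GFP on the vertical axis; the dotted line marks equal differences and the solid line the slope of 1.65. Most of the 1196 called genes lie on the far side of the dotted line from 0 at the upper right and lower left, the 14 genes with opposite directions lie in the upper left and lower right, and the 4 circled genes depart from the solid line by the test.

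Apart from the overall scale, few genes were called as different. When the mir-243p::GFP difference was multiplied by 1.65 before the comparison, 4 genes (0.0281%) were called, all of them with a negative value (less positive in mir-240/786p::GFP than the scaled mir-243p::GFP difference), and 1328 genes had an unadjusted p under 0.05 (9.32%). The test took the slope as fixed, so that its p-values leave out the error of the slope. The 4 genes were clec-71, which encodes a C-type lectin, endu-2, which encodes an endoribonuclease, Y37H2A.14 and R08C7.12. DESeq2 called 40 genes in the same comparison, the 4 among them. No gene passed when the sort block was left out of the fit on all 34 libraries (smallest adjusted p = 0.0665 in edgeR, 598 genes at an unadjusted p under 0.05), and 3 passed in the unblocked fit on the 16 libraries, of which 1 was among the 4.

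clec-71 (IV, 3937458 to 3939979) was higher in long-lived animals of both strains, but by more in mir-243p::GFP. In the mir-243p::GFP strain it stood at 22.5, 19.9, 25.0 and 10.3 CPM in long-lived libraries and at 3.43, 2.09, 3.56 and 0.793 CPM in short-lived libraries. In the mir-240/786p::GFP strain it stood at 5.91, 7.74, 6.55 and 6.67 CPM in long-lived libraries and at 1.53, 3.77, 1.82 and 2.00 CPM in short-lived libraries. The groups did not overlap in either strain, and the long-lived mir-243p::GFP animals had the highest levels of the 4 groups. The fold change was 8.38 in mir-243p::GFP and 3.07 in mir-240/786p::GFP, and the scale-adjusted log2 difference was −3.43 (SE 0.406, adjusted p = 0.00143). The log2 differences were 1.44 for lin-4p::GFP and 0.92 for autofluorescence, nearer to that of mir-240/786p::GFP (1.62) than to that of mir-243p::GFP (3.07).

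endu-2 (X, 8242301 to 8247869) had the same pattern at a higher level. It stood at 217, 213, 247 and 198 CPM in long-lived and at 92.2, 90.5, 84.6 and 66.1 CPM in short-lived mir-243p::GFP libraries. It stood at 124, 110, 146 and 159 CPM in long-lived and at 99.4, 59.7, 78.3 and 91.1 CPM in short-lived mir-240/786p::GFP libraries. Short-lived animals of the strains covered similar ranges, whereas every long-lived mir-243p::GFP library lay above every long-lived mir-240/786p::GFP library. The log2 difference was 1.40 in mir-243p::GFP and 0.73 in mir-240/786p::GFP, with a scale-adjusted difference of −1.58 (adjusted p = 0.00431), and 0.36 for lin-4p::GFP and 0.15 for autofluorescence. Without mir-243p::GFP sort 3 the adjusted p was 0.115. Exons of endu-2 overlap those of kqt-2, and how the counting divided such reads is not given in the sources used here.

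Y37H2A.14 (V, 18143745 to 18144720) went in opposite directions. It stood at 30.3, 22.8, 32.3 and 27.5 CPM in long-lived and at 12.7, 9.46, 13.6 and 11.3 CPM in short-lived mir-243p::GFP libraries. In mir-240/786p::GFP the order was turned, with 3.15, 4.16, 4.97 and 2.15 CPM in long-lived and 6.45, 7.62, 8.62 and 6.96 CPM in short-lived libraries. The groups did not overlap in either strain, so that the bright animals held more of this transcript in all 8 sorts. The log2 difference was 1.26 in mir-243p::GFP and −1.07 in mir-240/786p::GFP, a difference of −2.34 (SE 0.30, adjusted p = 0.00153), and the call was kept in all 15 other fits of this difference. For lin-4p::GFP and autofluorescence the log2 differences were 0.51 and 0.40.

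R08C7.12 (IV, 4449739 to 4460130, plus strand) is the gene in which mir-243 itself lies. In the Ensembl annotation of WBcel235, mir-243 (IV, 4450779 to 4450876, plus strand) falls in an intron of R08C7.12. The gene stood at 111, 81.2, 122 and 91.2 CPM in long-lived and at 73.7, 66.6, 84.7 and 54.9 CPM in short-lived mir-243p::GFP libraries. It stood at 6.26, 7.18, 5.92 and 5.69 CPM in long-lived and at 8.70, 10.3, 8.17 and 9.88 CPM in short-lived mir-240/786p::GFP libraries. Its mean over all libraries of a strain was 85.6 CPM in mir-243p::GFP, 7.77 CPM in mir-240/786p::GFP, 6.04 CPM in lin-4p::GFP and 7.18 CPM in the animals sorted by autofluorescence, so that the mir-243p::GFP strain held 11 times the level of mir-240/786p::GFP in bright and dim animals alike. The log2 difference was 0.53 in mir-243p::GFP and −0.56 in mir-240/786p::GFP, a difference of −1.10 (SE 0.16, adjusted p = 0.00293), and it was positive for bright against dim animals in all 8 sorts. The scale-adjusted call (adjusted p = 0.00783) was lost without mir-243p::GFP sorts 1, 3 or 4, with an adjusted p of up to 0.0942. Whether the reporter construct contributes reads to this gene was not tested, and its exons overlap those of chat-1, M01H9.2 and R08C7.16.

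**Figure D3:**
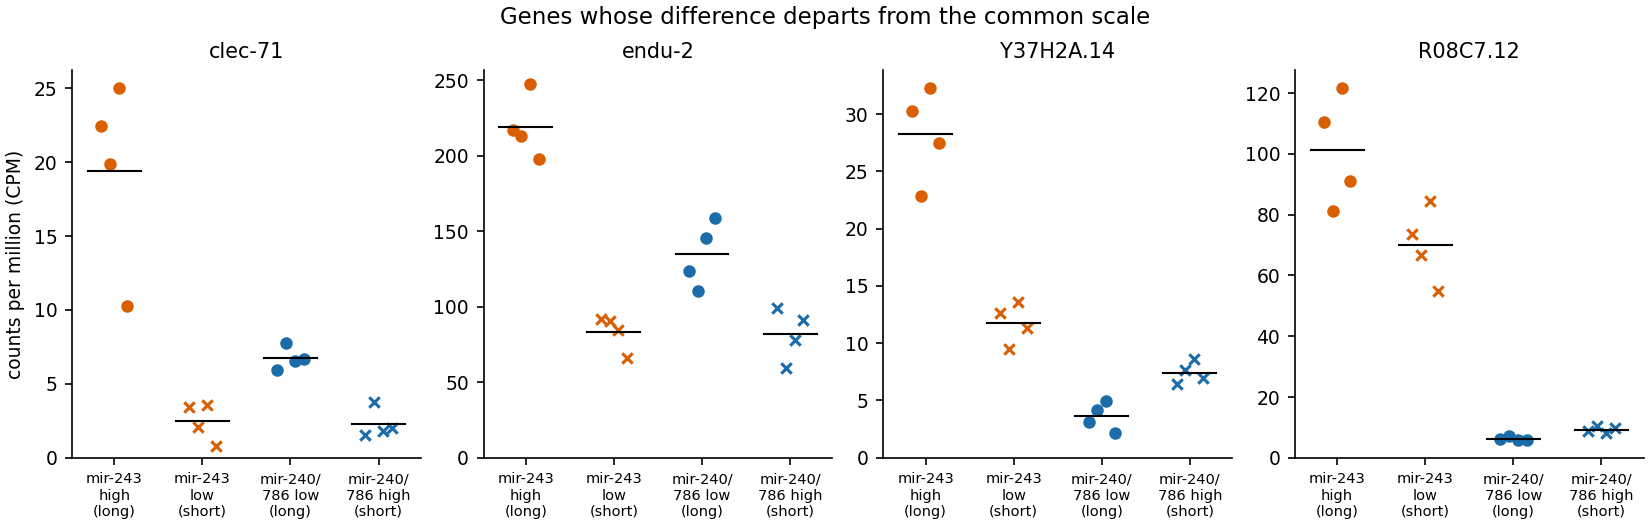
CPM per library (vertical axis, from 0) of the 4 genes called in the scale-adjusted difference, with circles for predicted long-lived and crosses for predicted short-lived libraries, orange for mir-243p::GFP and blue for mir-240/786p::GFP, and a line at the mean of 4 sorts. clec-71 and endu-2 are highest in long-lived mir-243p::GFP animals, whereas Y37H2A.14 and R08C7.12 are higher in the bright animals of both strains.

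The 14 genes with opposite directions (0.0983% of genes tested) are named here as a whole class. They were chosen by both single differences and by the difference between them, so that their directions are a description. In 6 of them, Y37H2A.14, R08C7.12, F49F1.7, F56D5.6, fbxa-30 and nrf-6, long-lived animals had more transcript in mir-243p::GFP and less in mir-240/786p::GFP, which is more in bright animals of both strains. In the other 8, F48C1.9, F21H7.5, gsp-4, otpl-6, cpt-3, moa-1, F37A4.5 and hlh-33, bright animals of both strains had less. All 14 kept 1 direction of brightness in all 8 sorts, in some sorts by only a few counts. In 4 of them, Y37H2A.14, F49F1.7, F48C1.9 and cpt-3, the 4 high and the 4 low libraries did not overlap in either strain. Both counts describe genes chosen by their differences in these same libraries, and the share over all genes was not counted. The count of such genes was between 5 and 10 without any 1 of mir-243p::GFP sorts 2 to 4 or mir-240/786p::GFP sorts 1 to 4, 15 without mir-243p::GFP sort 1, and 6 when only genes with at least 1 CPM in all 16 libraries were tested.

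**Figure D4:**
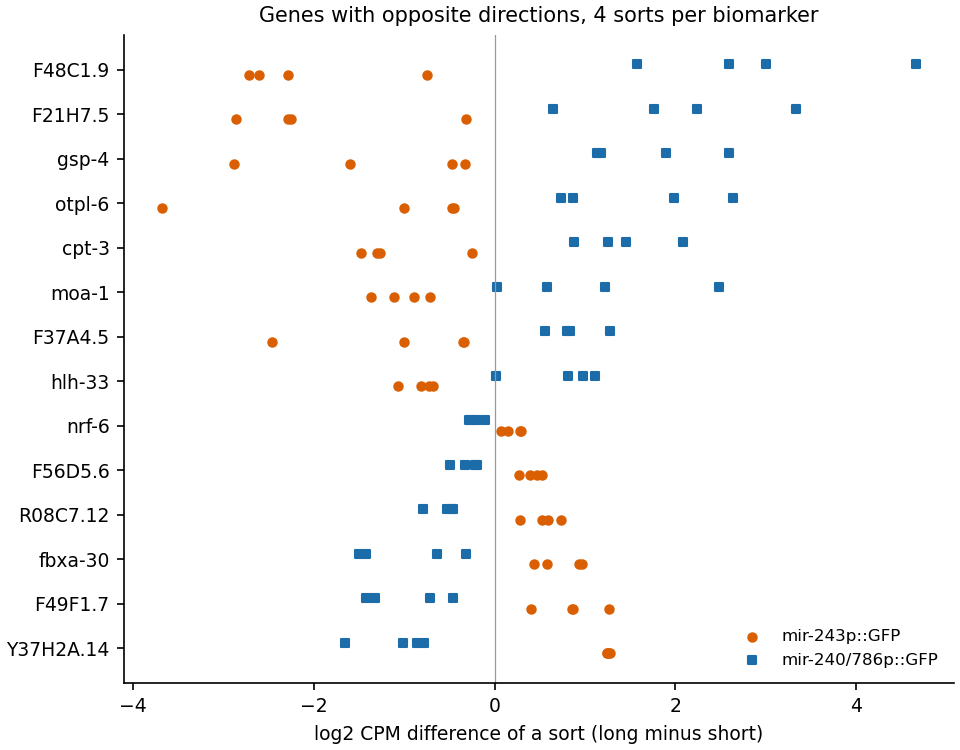
Log2 CPM difference (long minus short, horizontal axis) of each sort for the 14 genes with opposite directions, with 4 orange circles for mir-243p::GFP and 4 blue squares for mir-240/786p::GFP per gene. All 4 sorts of a strain lie on the same side of 0 in each gene, with 2 values close to 0 in moa-1 and hlh-33 of mir-240/786p::GFP.

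The 6 genes higher in bright animals had mean levels from 2.69 to 64.5 CPM. For lin-4p::GFP, where bright animals are the long-lived ones, the log2 difference was 0.51 for Y37H2A.14, 0.16 for F49F1.7 and 0.09 for nrf-6. It was −0.04 for F56D5.6, −0.13 for R08C7.12 and −0.26 for fbxa-30, and only that of Y37H2A.14 passed the threshold. F49F1.7 stood at 13.4, 8.21, 10.3 and 7.13 CPM in high and at 5.53, 4.48, 5.61 and 5.37 CPM in low mir-243p::GFP libraries. It stood at 5.07, 6.85, 5.81 and 7.32 CPM in high and at 3.65, 4.16, 2.26 and 2.67 CPM in low mir-240/786p::GFP libraries. Neither strain had an overlap, and the difference of differences was −1.85 (SE 0.32, adjusted p = 0.0048). nrf-6, a gene known for resistance of the worm's nose muscles to fluoxetine, had the smallest difference of the class, with 59.5 to 72.8 CPM in high and 53.8 to 68.3 CPM in low mir-243p::GFP libraries and a difference of differences of −0.41 (adjusted p = 0.0222). F56D5.6 and fbxa-30, an F-box gene of the fbxa family, had differences of −0.73 and −1.76.

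The 8 genes lower in bright animals were all rare, with means of 0.805 to 2.80 CPM over the 16 libraries, and the values of some libraries were at or under the floor. They include gsp-4, which encodes a protein phosphatase of sperm. gsp-4 stood at 4.80, 1.51, 0.813 and 1.04 CPM in long-lived and at 0.717, 0.635, 0.148 and 0.409 CPM in short-lived mir-240/786p::GFP libraries. It stood at 0.309, 0.281, 0.218 and 0.0405 CPM in long-lived and at 0.413, 1.05, 2.21 and 0.0933 CPM in short-lived mir-243p::GFP libraries. Long-lived animals thus had the higher value in every mir-240/786p::GFP sort and the lower value in every mir-243p::GFP sort. In mir-243p::GFP these values rest on 1 and 2 counts in sort 4, under the floor of 3 counts, and on 8 and 10 counts in sort 1. The difference of differences was 3.8 (SE 0.94, adjusted p = 0.02), and the gsp-4 call was lost in 5 of 14 other fits. cpt-3, a gene of the carnitine palmitoyltransferase family, stood at 4.15, 2.34, 3.66 and 6.04 CPM in long-lived and at 0.908, 1.23, 1.48 and 2.15 CPM in short-lived mir-240/786p::GFP libraries. Its order was turned in mir-243p::GFP, with 1.97, 1.69, 1.44 and 1.95 CPM in long-lived and 2.35, 4.19, 3.69 and 5.6 CPM in short-lived libraries. All 8 genes had a positive difference for autofluorescence, 6 of them past the threshold, whereas 4 were positive for lin-4p::GFP, 2 of them past the threshold. The direction of single sorts rests on few counts in other genes too. F21H7.5 had 6 counts (long) and 7 (short) in mir-243p::GFP sort 4, and moa-1 had 18 and 20 in mir-240/786p::GFP sort 4.

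Summed sperm transcripts were rare in these animals. Over 41 genes of sperm and major sperm proteins (the structural proteins of the crawling nematode sperm), summed values were 174.5, 35.4, 20.5 and 32.8 CPM in long-lived and 8.99, 12.4, 7.43 and 13.3 CPM in short-lived mir-240/786p::GFP libraries. In mir-243p::GFP they were 5.79, 5.06, 5.71 and 6.89 CPM in long-lived and 10.3, 16.7, 46.7 and 8.40 CPM in short-lived libraries. The groups did not overlap in either strain, with the dim animals higher in both, and the long-lived mir-240/786p::GFP library of sort 1 stood far above the rest. The sums were not tested. Only some of these genes passed the filter on low counts, namely 4 of 10 sperm genes and 1 of 31 major sperm protein genes, and of these gsp-4 and spe-41, which encodes a calcium channel of sperm, were called. The other tested sperm genes, spe-9 (−0.91 and −0.29) and snf-10 (−0.75 and −0.07), were negative in both strains and not called in the difference. For spe-41 the log2 differences were −0.34 in mir-243p::GFP and 0.67 in mir-240/786p::GFP (adjusted p = 0.0453). In RNA from whole animals, fewer cells of a type and less RNA per cell cannot be told apart, here and in the groups below.

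Germline genes differed by more in mir-240/786p::GFP than in mir-243p::GFP. Medians of their log2 differences were 0.97 and 0.25, beside 1.10 for autofluorescence and 0.37 for lin-4p::GFP, so that the larger value was not particular to mir-240/786p::GFP. Of 12 germline genes, 11 were higher in long-lived mir-240/786p::GFP animals and 1 in long-lived mir-243p::GFP animals, and none was lower in either, beside 29.8% of all genes higher in mir-240/786p::GFP and 16.7% in mir-243p::GFP. The difference of differences was called for 7 of the 12 (58.3%, beside 3.92% of all genes called in the positive direction), all positive, with a median over the list of 0.71 beside 0.02 over all genes tested. The 7 were glp-1, the Notch receptor that keeps germline stem cells dividing, pgl-1, a P granule protein, nos-2, a Nanos homolog, and rec-8, htp-1, htp-3 and him-3, which build the meiotic chromosome axis. glp-1 stood at 281, 288, 258 and 218 CPM in long-lived and at 196, 253, 203 and 217 CPM in short-lived mir-243p::GFP libraries. It stood at 271, 270, 265 and 295 CPM in long-lived and at 146, 149, 110 and 165 CPM in short-lived mir-240/786p::GFP libraries. Long-lived animals of both strains thus had similar levels, and the strains were furthest apart in their short-lived animals. The log2 differences of glp-1 were 0.27 and 0.96 (difference 0.70, SE 0.15, adjusted p = 0.0119).

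Oocyte and eggshell genes behaved in the same manner. All 15 were higher in long-lived mir-240/786p::GFP animals and 11 in long-lived mir-243p::GFP animals, beside 29.8% and 16.7% of all genes, with medians of 1.02 and 0.38 on the log2 scale. The median was 0.99 for autofluorescence and 0.50 for lin-4p::GFP. The difference was called for 10 of 15 (66.7%, beside 3.92% of all genes), all positive, with values from 0.48 to 0.82. They included oma-1 and oma-2, which are needed for oocyte maturation, and puf-5 and puf-11, which encode RNA-binding repressors. Also called were spn-4, an RNA-binding factor of the early embryo, rme-2, the yolk receptor, and chs-1, egg-1, egg-2 and egg-3, which act in making the eggshell. spn-4 had the smallest adjusted p of these (0.00678), with log2 differences of 0.38 and 1.15. rme-2 stood at 898, 1034, 823 and 490 CPM in long-lived and at 474, 762, 623 and 620 CPM in short-lived mir-243p::GFP libraries. It stood at 957, 992, 861 and 1008 CPM in long-lived and at 378, 476, 346 and 509 CPM in short-lived mir-240/786p::GFP libraries. The groups overlapped in the first strain and not in the second (difference 0.82, adjusted p = 0.0487), and the rme-2 call was lost in 12 of 15 other fits.

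None of these genes was called after scaling by 1.65, but all 12 germline and all 15 oocyte genes still had a positive scale-adjusted difference, beside 7623 of 14245 over all genes. Medians of the scale-adjusted difference were 0.51 over the 12 germline genes and 0.31 over the 15 oocyte genes. Other lists leaned too, given here as examples after their values were seen. All 6 vitellogenins (median 1.88) and 66 of 79 cytosolic ribosomal protein genes (median 0.13) had a positive scale-adjusted difference. Only 1 of 11 intestinal markers (median −0.54) and 1 of 7 lysosomal lipase genes (median −1.03) did. Summed germline genes ranged from 3111 to 3770 CPM in long-lived and from 1348 to 2272 CPM in short-lived mir-240/786p::GFP libraries, and from 2216 to 3710 and from 2178 to 3100 CPM in mir-243p::GFP. The 17 called germline and oocyte genes fell to 8 and 5 without mir-243p::GFP sorts 3 and 4 and to 7 and 1 without mir-240/786p::GFP sorts 2 and 3, and there were none without the sort block on all 34 libraries and 14 without it on the 16 libraries.

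**Figure D5:**
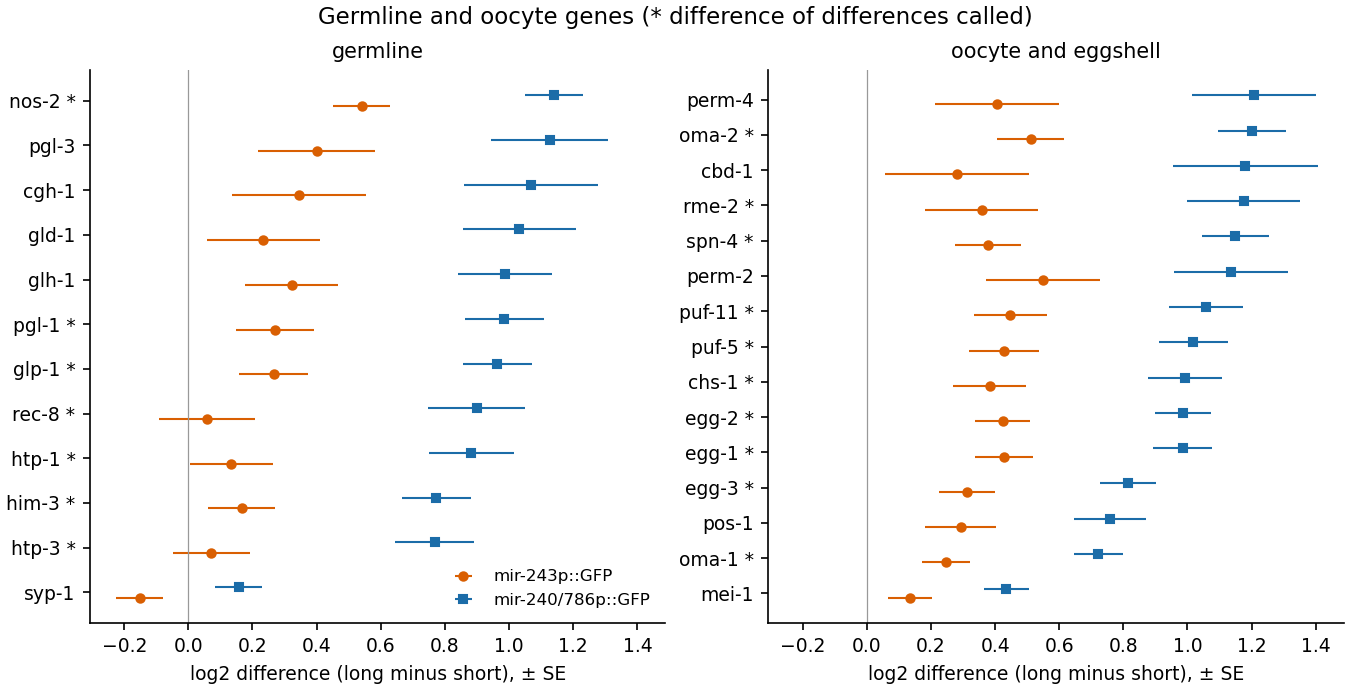
Log2 difference (long minus short) ± SE of each of 12 germline genes (left) and 15 oocyte and eggshell genes (right), with orange circles for mir-243p::GFP and blue squares for mir-240/786p::GFP; an asterisk marks the 7 and 10 genes called in the difference of differences. The mir-240/786p::GFP value lies to the right of the mir-243p::GFP value in all 27 genes.

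Yolk protein genes had the largest median difference of the lists with at least 6 genes tested. All 6 vitellogenins were higher in long-lived mir-240/786p::GFP animals (median log2 difference 3.41), beside 29.8% of all genes. In long-lived mir-243p::GFP animals 3 were higher (median 0.92), beside 16.7% of all genes. The median was 3.11 for autofluorescence and 2.09 for lin-4p::GFP. In the difference 1 of 6, vit-5, was called, beside 3.92% of all genes in the positive direction. vit-5 stood at 13672, 14306, 9973 and 20017 CPM in long-lived and at 1385, 1286, 379 and 2342 CPM in short-lived mir-240/786p::GFP libraries. It stood at 7043, 9299, 11261 and 3559 CPM in long-lived and at 1564, 5559, 2950 and 1660 CPM in short-lived mir-243p::GFP libraries. The groups overlapped in mir-243p::GFP only. The log2 differences were 1.49 and 3.64 (adjusted p of the difference 0.0497), and the call was lost in 10 of 15 other fits.

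None of the intestinal marker genes was called in the difference. Of 11 intestinal markers, 7 were higher in long-lived mir-243p::GFP animals and 6 in long-lived mir-240/786p::GFP animals, beside 16.7% and 29.8% of all genes. Their medians were 0.90 and 0.71. asp-1, an aspartic protease, was higher by 2.01 and 2.94, cpr-1, a cysteine protease, by 3.12 and 4.41, and elt-2, the GATA factor of the intestine, by 0.90 and 0.71, as examples chosen after their values were seen. The 1 marker called lower in long-lived mir-240/786p::GFP animals was act-5, an intestinal actin, with log2 differences of −0.42 in mir-243p::GFP and −1.17 in mir-240/786p::GFP. Summed intestinal markers ranged from 1173 to 2804 CPM in long-lived and from 262 to 943 CPM in short-lived mir-243p::GFP libraries, and from 1651 to 2586 and from 166 to 525 CPM in mir-240/786p::GFP. None of the 7 spermathecal markers was called either, with medians of 0.04 in both strains.

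Some genes of the cuticle and its epidermis were lower in long-lived animals of both strains, and by more in mir-240/786p::GFP. The 10 smallest p-values of the difference, read after the values were seen, included those of dpy-2 and dpy-10, which encode cuticle collagens, and of cutl-9, a cuticlin-like gene. dpy-10 stood at 30.1, 27.3, 59.9 and 41 CPM in long-lived and at 84.1, 74.3, 97.5 and 64.5 CPM in short-lived mir-243p::GFP libraries. It stood at 20.9, 18.8, 15.7 and 14.7 CPM in long-lived and at 135, 114, 114.6 and 74.9 CPM in short-lived mir-240/786p::GFP libraries. The groups did not overlap in either strain, and the long-lived mir-240/786p::GFP libraries were the lowest (log2 differences −1.07 and −2.63, adjusted p = 0.00288). Exons of dpy-10 overlap those of T14B4.19. In the hypodermis list, 3 of 6 genes were called, all negative (beside 4.47% of all genes), namely the collagens dpy-7 (−0.83 and −2.43) and sqt-3 (−1.01 and −2.48) and the Hedgehog-related gene wrt-10 (−0.89 and −2.17). The other 3, the adult collagens col-19 (−0.15 and 1.00), col-119 (−0.15 and 2.03) and col-140 (−0.07 and 2.09), had a positive difference and were not called, and the median over the list was −0.06. Of 81 cuticle collagens, 5 were called (6.17%), all negative, but the list as a whole had a median of 0.38 in the difference, and 47 of the 81 had a positive difference. None of the cuticle and epidermis genes was called after scaling by 1.65.

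ces-2, a bZIP factor known for a cell death decision in the worm's nervous system, had the smallest p-value of all differences, and is named here for that reason. It stood at 33.3, 32.1, 57.8 and 76.7 CPM in long-lived and at 117, 79.4, 97.7 and 131 CPM in short-lived mir-243p::GFP libraries. It stood at 32.6, 21.2, 33.3 and 23.4 CPM in long-lived and at 211, 203, 242.7 and 178 CPM in short-lived mir-240/786p::GFP libraries. Short-lived mir-240/786p::GFP animals had the highest levels of the 4 groups (log2 differences −1.16 and −2.94, adjusted p = 0.00153), and the log2 differences of the other biomarkers were −2.52 and −2.83. ces-2 was not called after scaling by 1.65.

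The glycerol phosphate list had 3 of 6 genes called, pgph-1, pgph-2 and pgph-3, a family of phosphoglycolate phosphatase homologs, all positive, beside 3.92% of all genes. pgph-2 stood at 140, 93.9, 94.5 and 106 CPM in long-lived and at 66.5, 60, 64.7 and 70.7 CPM in short-lived mir-243p::GFP libraries. It stood at 116, 127, 110 and 92.4 CPM in long-lived and at 33.9, 30.7, 23.4 and 27.1 CPM in short-lived mir-240/786p::GFP libraries. As with glp-1, the long-lived groups covered similar ranges and the short-lived groups did not overlap (log2 differences 0.71 and 1.96, adjusted p = 0.00153), and the call was kept in all 15 other fits. pgph-1 and pgph-3 differed by 1.30 and 1.37. They are members of 1 family, and reads that match more than 1 of them could have been divided by the counting.

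Shares of called genes ranged from 5.56% to 15.4% in the immune and detoxification lists, beside 8.4% of all genes. Of 107 C-type lectins, 46 were higher in long-lived mir-243p::GFP animals and 57 in long-lived mir-240/786p::GFP animals, beside 16.7% and 29.8% of all genes. In the difference 7 were called (6.54%), 3 positive and 4 negative. Besides clec-71, these included clec-82 (log2 differences 2.11 and 5.13) and clec-266 (−0.74 and −2.0). Of 13 lysozymes, ilys-2 (0.29 and 1.65) and ilys-3 (−0.30 and 0.69), both of the invertebrate type, were called. In the cytochrome P450 list 7 of 55 were called, with 2 positive and 5 negative, in the UDP-glucuronosyltransferases 4 of 59, all negative, and in the glutathione S-transferases 2 of 36, both negative. irg-4, a target of the p38 immune pathway, had log2 differences of 1.32 and 4.22 (adjusted p = 0.0149).

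Called members of stress and regulatory families are given beside the 8.4% of all genes called, of which 637 of 1196 were negative. Of 13 small heat shock protein genes, hsp-16.41 (−1.04 and −2.25) and a pair of genes that share the symbol hsp-16.48 were called, all negative, and the pair cannot be told apart by its counts. Nuclear hormone receptors had 16 of 189 called (8.47%), 2 positive and 14 negative, among them nhr-25 (−0.96 and −2.27), a regulator of molting and epidermal development, and nhr-114 (−0.64 and 0.32). The fbxa F-box genes had 17 of 116 called (14.7%), 7 positive and 10 negative, such as fbxa-79 (−1.25 and −2.89) and fbxa-215 (0.40 and 1.14). Proteasome genes were higher in long-lived animals of both strains, 23 and 31 of 33 beside 16.7% and 29.8% of all genes, and pbs-3, rpn-8 and rpn-12 were called in the difference (0.33 to 0.38), which is 9.09% beside 8.4% of all genes. Of 79 cytosolic ribosomal protein genes, 42 were higher in long-lived mir-240/786p::GFP animals and none in long-lived mir-243p::GFP animals, but none was called in the difference, and the medians were 0.31 and 0.09.

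No muscle gene was called in the difference. The 11 body wall muscle genes had medians of 0.15 and 0.97, with 6 higher in long-lived mir-240/786p::GFP animals and none in long-lived mir-243p::GFP animals. The 5 pharyngeal muscle genes had medians of −0.49 and 0.94, with 3 higher in long-lived mir-240/786p::GFP animals and 2 in long-lived mir-243p::GFP animals. None of the 5 was called lower in either strain. Over all genes, 16.7% were higher in mir-243p::GFP and 29.8% in mir-240/786p::GFP. The spread was wide, as with myo-2, the pharyngeal myosin heavy chain, at −1.12 and 0.85 (difference 1.97, SE 1.09, adjusted p = 0.273).

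Over the 43 lists, 112 of 1271 members tested were called in the difference (8.81%, beside 8.4% of all genes), and 1 after the scale adjustment, clec-71. The lists not yet described had few members called. In the metal response list these were zipt-2.3, a zinc transporter gene with log2 differences of 0.01 and 2.66 at a mean of 0.632 CPM, and a pair of genes that share the symbol numr-1 (−2.08 and −3.50) and cannot be told apart by their counts. Of 30 FMRFamide-like neuropeptide genes, flp-15 (−1.09 and −2.33) and flp-16 (−0.23 and −0.91) were called (6.67%). Of 64 NLP neuropeptide genes 1 was called (1.56%), nlp-14 (−0.42 and −1.43), and of 27 insulin-like peptide genes 1 (3.7%), ins-2 (−1.0 and −2.58). fat-1, which encodes an omega-3 fatty acid desaturase, had log2 differences of 0.69 and 1.21, and ctl-3, a catalase gene, of 0.07 and 0.78. None of the 15 chaperone genes, 8 genes of the mitochondrial unfolded protein response, 11 methionine cycle genes, 6 pud genes or 6 MCM helicase genes was called. In edgeR, 1 of 14 neuronal genes was called, unc-64, a syntaxin gene (−0.76 and −1.29).

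Genes next to the reporters' microRNAs were read for comparison with R08C7.12. Within 10000 bases of mir-240 and mir-786 (X, 7882622 to 7882840), cca-1 had log2 differences of −0.89 and −0.95, pcyt-2.2 of −0.41 and −0.40, C39D10.8 of 0.04 and 0.15 and C39D10.2 of 0.22 and −0.24, and none was called in the difference. Beside mir-243, chat-1, which overlaps R08C7.12, had log2 differences of −0.27 and −0.61 (adjusted p of the difference 0.116). unc-119, a neuronal gene that is widely used as a rescue marker in worm transgenes, was read after its values were seen. It stood at 2179 to 3661 CPM in the mir-243p::GFP libraries and at 253 to 729 CPM in the mir-240/786p::GFP libraries. Its means there were 3082 and 447 CPM, beside 24.5 CPM in lin-4p::GFP and 33.3 CPM in the animals sorted by autofluorescence. Its log2 differences were −0.24 and −1.08 (difference −0.84, SE 0.17, adjusted p = 0.00789), and what the transgenes contribute to its counts was not tested.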

How the data were processed

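Poly(A)-selected RNA of pooled whole animals was sequenced by the study's authors. Per the submitters' processing notes they aligned reads with STAR 2.7.3a to WBcel235 and counted them per gene with featureCounts. The deposited values are raw counts per gene. The annotation, the strand setting and the handling of multimapping reads are not given in the sources used here, and neither is the sequencing batch that the study modelled, so no batch term could be fitted. Groups and sort numbers were taken from the sample titles.

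The counts were analysed with edgeR 4.0.16 in R 4.3.3. A gene was tested when 26 or more of the 34 libraries (75%) reached 5 counts, which left 14245 of 20223. The gfp row counted toward library sizes and was not tested. Counts were normalised by TMM, and a quasi-likelihood model was fitted to all 34 libraries with 17 sort blocks and 1 long-minus-short term for each of 4 biomarkers (13 residual degrees of freedom). The difference of 2 terms, and the same difference after multiplying the mir-243p::GFP term by 1.65, were tested with Benjamini-Hochberg adjustment over all genes at 0.05. CPM are counts per M (1000000) of the library total scaled by TMM. Scores used log2 CPM with a prior count of 2.

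The high and low library of a title share 1 sort, which is where the pairing comes from. The deviations of same-numbered libraries correlated with r from −0.071 to 0.242, over 0.1 in 3 of 8 sorts.

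Named genes were members of 43 gene lists called in either test, the whole class with opposite directions, and genes called after scaling with a mean of at least 1 CPM whose sorts did not overlap. The genes, lists and tests were chosen with earlier results of these data known. Symbols were matched for 19708 of 20223 identifiers, and coordinates come from Ensembl release 115. Exons of 4270 tested genes overlap another gene. Alternatives were DESeq2 1.42.0, its size factors, other filters, other scale factors, no block, the 16 libraries alone and leaving out each sort.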

Additional observations from a re-analysis of the deposited data

Results flagged for a closer look

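Between the biomarkers the per-sort score differed by 1.22, the difference of differences was called for 1196 genes, and 4 genes were called after the scale adjustment. Their scale-adjusted log2 differences were −3.43 for clec-71, −3.16 for Y37H2A.14, −1.58 for endu-2 and −1.44 for R08C7.12. The difference of differences was called for 17 germline and oocyte genes. For the genes with opposite directions it was 5.27 for F48C1.9, 5.12 for F21H7.5, 3.8 for gsp-4, 3.25 for otpl-6, 2.58 for cpt-3, 2.29 for moa-1, 1.98 for F37A4.5, 1.61 for hlh-33, −0.41 for nrf-6, −0.73 for F56D5.6, −1.10 for R08C7.12, −1.76 for fbxa-30, −1.85 for F49F1.7 and −2.34 for Y37H2A.14.

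In 3 of 74 groups of 4 libraries, 1 library stood far from the others, where chance gives about 5% of groups. These were otpl-6 in the low mir-243p::GFP library of sort 4 (4.25 CPM), nrf-6 in the high mir-243p::GFP library of sort 2 (59.5 CPM) and the summed sperm genes in the low mir-240/786p::GFP library of sort 1 (174.5 CPM).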

How the results depend on the processing

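Without the sort block on all 34 libraries, 3 genes were called in the difference, 0 after the scale adjustment, 1 with opposite directions and 1 member of the gene lists, and 3357 genes were called in mir-243p::GFP. The unblocked fit on the 16 libraries, chosen after seeing the data, called 1075, 837 of them among the 1196. DESeq2 called 1692 genes in the difference and 40 after the scale adjustment, and the filter of at least 1 CPM left 6 genes with opposite directions. With DESeq2's size factors 37% of the called differences were positive, beside 46.7%. Leaving out 1 sort at a time gave 256 to 1435 called differences, 2 to 4 genes after scaling, 5 to 15 genes with opposite directions, 3521 to 5251 genes called in mir-243p::GFP, 32 to 132 called list members and a score difference of 1.06 to 1.39. No result changed direction in any of these fits. Values under 0.113 to 0.174 CPM, depending on the library, are below 3 counts, which limits the 8 rare genes that were lower in bright animals.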

Other observations

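Genes outside the lists, read after their values were seen, included further genes of the male germ line. fog-3, which commits germ cells to the sperm fate, had log2 differences of −0.89 in mir-243p::GFP and 1.98 in mir-240/786p::GFP (difference 2.87, SE 0.47, edgeR adjusted p = 0.00442). spe-18, a gene of spermatogenesis, had −0.68 and 2.80 (difference 3.48, edgeR adjusted p = 0.0119), and spch-2, a sperm chromatin gene, had −2.47 and 1.98 (difference 4.45, edgeR adjusted p = 0.0375). All 3 had a mean under 3 CPM over the 16 libraries. The listed sperm genes spe-9 and snf-10, in contrast, were negative in both strains and not called in the difference. The summed sperm genes stood far higher in the long-lived mir-240/786p::GFP library of sort 1 (174.5 CPM) than in the rest. pie-1, which keeps transcription silent in germline blastomeres, had 0.11 and 0.82 (difference 0.72, edgeR adjusted p = 0.00426).

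Besides clec-71 and endu-2, both genes that differed by more in mir-243p::GFP in the same direction were lower in long-lived animals there. acox-1.1, an acyl-CoA oxidase gene of peroxisomal fatty acid breakdown, had log2 differences of −1.45 and −0.50 (edgeR adjusted p of the difference 0.0457), beside −0.33 for lin-4p::GFP and −0.40 for autofluorescence. C54F6.6 had −2.62 and −0.20 (edgeR adjusted p of the difference 0.0283), beside −3.59 and −1.83.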
